A study of Homo sapiens with 22 samples.

Results

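Lysosome and autophagy genes were followed as a list, chosen by name and role with earlier results of these data known. The list of 33 genes was matched to the tables by gene symbol. It held 2 transcription factors, 6 lysosomal membrane proteins, 5 proteases, 8 glycosidases or proteins of lipid breakdown, 4 genes of the autophagy receptor and ATG8 family, 4 of autophagy initiation and membrane supply, and 4 of the conjugation machinery. The list made up 33 of 25244 genes in the HUWE1 experiment and 33 of 25791 in the MIZ1 experiment, and 33 of 33 passed a filter of 1 CPM (counts scaled to library size) in both, as did 24111 genes in all.

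Ls174T, an established line from a human colon carcinoma, was the model throughout, and its RNA was sequenced as 8 groups with 2 libraries in each. One experiment, called the HUWE1 experiment, compared cells carrying a constitutive lentiviral shRNA against the ubiquitin ligase HUWE1 (shHUWE1) with cells holding the empty vector (control vector), and both received 20 µM of the HUWE1 inhibitor BI8622 for 16 h or DMSO. The other, called the MIZ1 experiment, used cells with an inducible shRNA against MIZ1, the transcription factor encoded by ZBTB17, kept with doxycycline (1 µg/ml for 4 days) or without it, which received BI8622 or DMSO. Each depletion rested on 1 shRNA: shHUWE1 cells were a puromycin-selected population compared with an empty vector, and all 4 groups of the MIZ1 experiment carried the inducible vector, so that doxycycline itself had no separate control. The 4 pairs of BI8622 and DMSO groups are called arms here, and share no library.

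The lysosome is the acidic compartment in which cathepsins, glycosidases and lipases break down macromolecules. Autophagy delivers cytoplasm to it: the ULK1 and BECN1 complexes start a membrane, WIPI proteins bind its phosphoinositide, a conjugation machinery attaches ATG8 proteins such as LC3 to it, and receptors such as SQSTM1 link cargo to ATG8 proteins. Many of these genes are known targets of TFEB and TFE3, factors that mTORC1 at the lysosomal surface keeps in the cytoplasm and that bind an E-box variant known as the CLEAR element.

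The tables gave, for each pair of groups, the mean level over the libraries of both groups, from which the level of every group was solved. Each level is therefore a mean of 2 libraries with no error of its own, read depths are unknown, and levels compare within a gene only. HUWE1 stood at 176 CPM in shHUWE1 cells and 460 CPM in control vector cells with BI8622 (−1.38 on the log2 scale), and at 218 and 420 CPM with DMSO (−0.95). ZBTB17 stood at 11.4 CPM with doxycycline and 22.6 CPM without it in BI8622 (−0.99), and at 11.0 and 15.7 CPM in DMSO (−0.52). Of 10 colon epithelial markers, 10 were detected, with KRT8 averaging 942 and EPCAM 397 CPM in the HUWE1 experiment. Summed over the list they ranged between 1729 and 3049 CPM over the groups, and 6 of the 10 were higher and 1 lower with BI8622 in the test described below. The 2 fibroblast markers in the tables summed to 4.05 to 8.09 CPM and the endothelial ones to at most 8.62 CPM. The 3 leukocyte markers summed to 156 to 207 CPM, nearly all of it CSF1R (195 CPM in the HUWE1 experiment), with the pan-leukocyte marker PTPRC at 2.49 CPM. The part of these markers in the results below was not tested, and in bulk RNA fewer cells of a type and less RNA per cell cannot be told apart.

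Promoters were read because TFEB and TFE3 act through a short motif. In the RefSeq promoter table (GRCh38.p14, 250 bases before to 50 bases after the start), 28 of the 33 genes were found. The hexamer CACGTG, which reads the same on both strands, was present in 7 of these 28 genes (CD63, CTSA, CTSD, GAA, LAMP1, MCOLN1 and NEU1), against 8.77% of all genes and 7.26% of all promoters in the table. The longer form had GT on the 5′ side and AC on the 3′ side of the hexamer. It stood in 2 of the 28 genes (GAA and MCOLN1), against 0.421% of all genes and 0.353% of all promoters. Shown are 4 promoters that differ in response: NEU1 (chr6:31862772-31863071, minus strand), GAA (chr17:80101331-80101630, plus strand), MCOLN1 (chr19:7522374-7522673, plus strand) and LAMP1 (chr13:113296989-113297288, plus strand). Capitals mark the hexamer, or the longer form where it is complete, and each sequence runs 5′ to 3′ on the strand of its gene.
NEU1: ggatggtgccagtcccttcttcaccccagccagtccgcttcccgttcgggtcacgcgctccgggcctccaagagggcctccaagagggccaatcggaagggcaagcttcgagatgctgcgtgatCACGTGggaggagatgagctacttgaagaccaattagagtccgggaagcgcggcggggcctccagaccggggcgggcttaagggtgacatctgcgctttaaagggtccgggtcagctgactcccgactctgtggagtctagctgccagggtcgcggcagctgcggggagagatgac
GAA: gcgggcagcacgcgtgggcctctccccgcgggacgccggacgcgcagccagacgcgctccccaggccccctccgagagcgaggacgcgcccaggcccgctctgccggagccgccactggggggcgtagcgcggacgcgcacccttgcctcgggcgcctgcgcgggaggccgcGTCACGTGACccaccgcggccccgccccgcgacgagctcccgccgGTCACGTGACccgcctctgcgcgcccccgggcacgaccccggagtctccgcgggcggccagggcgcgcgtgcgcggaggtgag
MCOLN1: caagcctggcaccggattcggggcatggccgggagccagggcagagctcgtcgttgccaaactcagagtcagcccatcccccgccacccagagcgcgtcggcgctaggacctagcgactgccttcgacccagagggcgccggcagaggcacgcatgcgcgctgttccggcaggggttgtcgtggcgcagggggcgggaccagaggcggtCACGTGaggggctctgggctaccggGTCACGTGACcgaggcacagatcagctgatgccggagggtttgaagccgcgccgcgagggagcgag
LAMP1: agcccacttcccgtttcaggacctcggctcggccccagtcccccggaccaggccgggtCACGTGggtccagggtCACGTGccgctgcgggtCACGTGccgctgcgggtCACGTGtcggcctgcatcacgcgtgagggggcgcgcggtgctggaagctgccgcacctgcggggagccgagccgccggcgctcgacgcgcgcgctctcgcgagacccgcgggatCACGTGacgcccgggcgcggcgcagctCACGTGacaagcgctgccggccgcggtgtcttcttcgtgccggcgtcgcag
NEU1 held 1 hexamer, GAA and MCOLN1 held 2 each, and LAMP1 held 6. A match describes these letters only and shows no binding. The authors used the same hexamer as their consensus E-box and describe genes with an E-box among the targets of MYC.

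BI8622 was compared with DMSO first. Over the 4 arms, 17 of the 33 genes were higher and 4 lower with BI8622, while 12 did not pass the test (limma on 1 log2 difference per arm, two-sided, adjusted over 24111 genes, threshold 0.05). Over all genes tested, 23.3% were higher and 22.2% lower. Most of the genes that changed in this list thus rose, whereas all genes were split about evenly. The list was chosen with earlier results of these data known, so this contrast is a description. The median difference of the list was 0.21 on the log2 scale, against 0.01 for all genes. All 4 arms were above 0 for 17 members and all below 0 for 4; of all genes, 28.7% and 28.4% did so. The changes with the largest size were those of WIPI1, NEU1 and SQSTM1, which rose, and of GLA, which fell. Because the arms differ in vector and experiment, the error of this test (SE) is the spread between arms, not between libraries of a group. The test treated the 4 arms as independent, although they came in pairs from the same experiment. For genes whose response differed between the experiments, as described below, the SE and adjusted p may therefore be too small.

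**Figure D1:**
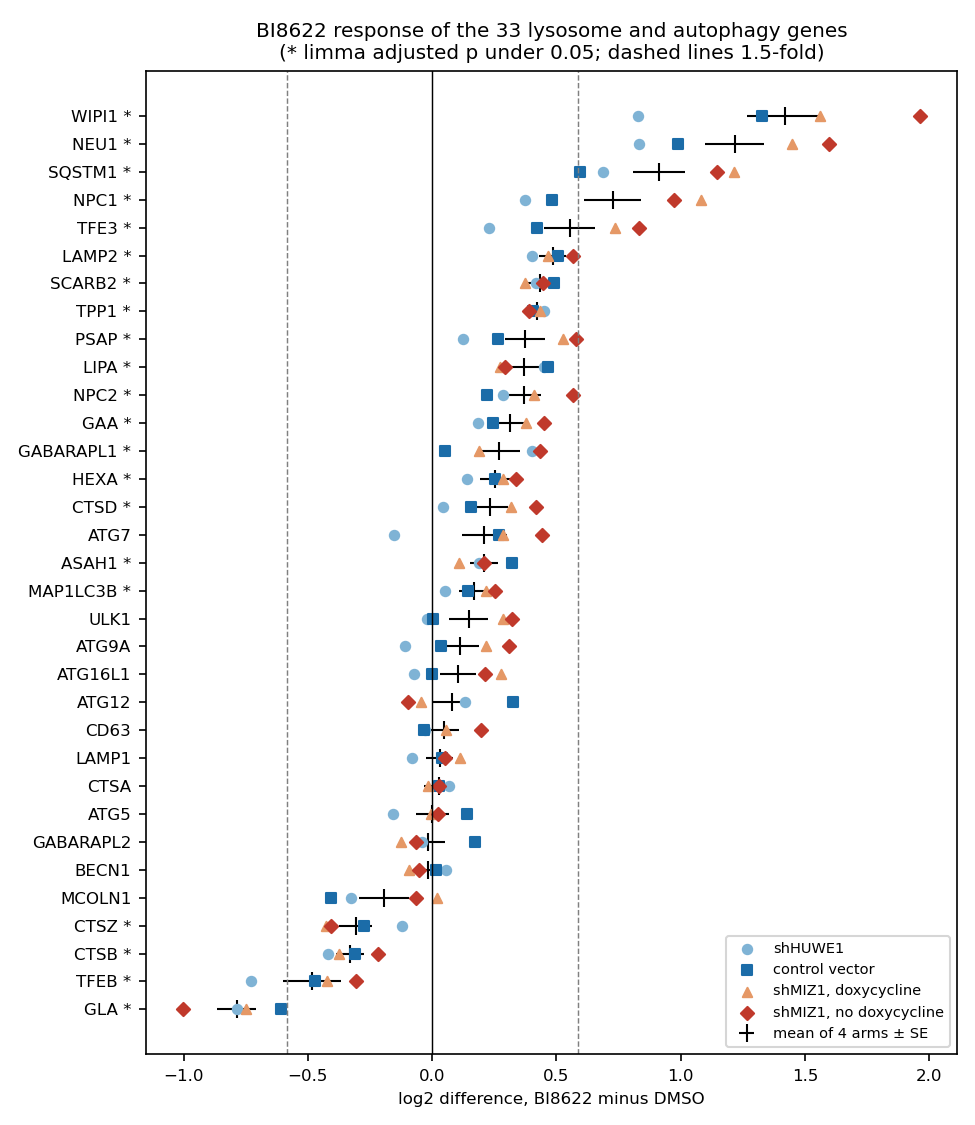
The log2 difference between BI8622 and DMSO is plotted for each of the 33 genes (rows, ordered by mean), with 1 symbol per arm and the mean of the 4 arms with its limma SE as a cross. WIPI1, NEU1 and SQSTM1 lie past the dashed 1.5-fold line in each arm, GLA lies past it on the lower side, and stars mark the 21 genes that passed the test.

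Counted arm by arm at 1.5-fold, a description without a test, few members were past the line. In shHUWE1 cells 3 were higher (6.54% of all genes were) and 2 lower (6.78%), and in control vector cells 3 were higher (10.4%) and 1 lower (5.83%). With doxycycline 5 were higher (12.7%) and 1 lower (10.9%), and without doxycycline 5 were higher (15.2%) and 1 lower (11.5%). As shares of 33 genes, these counts are near those of all genes or below them. NEU1, SQSTM1 and WIPI1 were the higher ones in each arm, joined by NPC1 and TFE3 in both arms of the MIZ1 experiment. GLA was the lower one in each arm, joined by TFEB in shHUWE1 cells. The list's median difference was 0.07 in shHUWE1 cells (−0.03 for all genes), 0.17 in control vector cells (0.02), 0.27 with doxycycline (0.01) and 0.31 without it (0.04).

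The levels below are given in the order shHUWE1, control vector, MIZ1 shRNA with doxycycline and without it. Of the transcription factors, TFE3 (chromosome X, 48886237 to 48900936, minus strand, GRCh37) stood at 23.7, 30.3, 39.6 and 41.8 CPM with BI8622, against 20.2, 22.6, 23.8 and 23.5 CPM with DMSO. It rose by 0.55 ± 0.10 on the log2 scale (SE, 4 arms; limma adjusted p = 0.00249), and its lowest BI8622 level, in shHUWE1 cells, lay within the range of the DMSO levels. TFEB (chromosome 6, 41651716 to 41703997, minus strand) stood at 3.81, 4.21, 4.26 and 4.11 CPM with BI8622 and 6.31, 5.84, 5.71 and 5.09 CPM with DMSO. It fell by 0.48 ± 0.12 (limma adjusted p = 0.00876), and its BI8622 and DMSO levels did not overlap. Both factors of the list thus changed, in opposite directions.

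Among lysosomal membrane proteins, 3 of 6 rose and none fell. NPC1, which exports cholesterol from the lysosome together with NPC2, stood at 103, 114, 189 and 173 CPM with BI8622, against 79.2, 81.4, 89.5 and 87.9 CPM with DMSO, a rise of 0.73 ± 0.11 (limma adjusted p = 0.00112). LAMP2, a main structural protein of the lysosomal membrane, stood at 121, 127, 136 and 136 CPM with BI8622, against 91.6, 89.2, 98.6 and 91.8 CPM with DMSO. Its 4 arms lay close together, between 0.40 and 0.57, with a mean of 0.48 ± 0.05 (limma adjusted p = 0.000227). SCARB2, the receptor that carries glucocerebrosidase to the lysosome, rose by 0.43 (limma adjusted p = 0.000282), within 0.37 to 0.49 over the arms. LAMP1, the closest relative of LAMP2, had 166, 163, 155 and 145 CPM with BI8622 and 176, 158, 144 and 140 CPM with DMSO, and its mean difference of 0.03 did not pass (limma adjusted p = 0.689). The difference of LAMP2 in each arm was thus larger than that of LAMP1 in any. The calcium channel gene MCOLN1 had 9.65, 9.89, 9.11 and 11.0 CPM with BI8622 and 12.1, 13.1, 8.99 and 11.5 CPM with DMSO (mean −0.20, limma adjusted p = 0.145). Its difference was −0.33 and −0.41 in the HUWE1 experiment and between −0.07 and 0.02 in the MIZ1 experiment. CD63, a tetraspanin of late endosomes and lysosomes, had a mean difference of 0.05 (limma adjusted p = 0.553).

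The proteases were split. TPP1, a tripeptidyl peptidase, rose by 0.42 (limma adjusted p = 0.000376) and varied least of the 33 genes over the arms, with an SD of 0.028. CTSD, the aspartic cathepsin, stood at 182, 181, 191 and 215 CPM with BI8622, against 176, 163, 153 and 161 CPM with DMSO. Its rise was 0.23 ± 0.07 (limma adjusted p = 0.0228). The cysteine cathepsin CTSB fell, with 181, 178, 187 and 186 CPM with BI8622 and 242, 221, 243 and 216 CPM with DMSO (−0.33 ± 0.06, limma adjusted p = 0.00148). CTSZ, another cysteine cathepsin, fell by 0.31 (limma adjusted p = 0.00561). CTSA, the serine carboxypeptidase that binds and stabilizes the NEU1 protein, had a mean difference of 0.03 (limma adjusted p = 0.744). CTSA differed by −0.02 to 0.07 over the arms, in which NEU1 differed by 0.83 to 1.60.

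Of the 8 glycosidases and proteins of lipid breakdown, which include the non-enzymes PSAP and NPC2, 7 rose and 1 fell, with a median of 0.34, the largest share of any role in the list. NEU1, the lysosomal sialidase (chromosome 6, 31825436 to 31830682, minus strand), stood at 72.1, 67.7, 86.9 and 104 CPM with BI8622, against 40.5, 34.1, 31.9 and 34.4 CPM with DMSO. The rise of 1.22 ± 0.12 was 2.32-fold (limma adjusted p = 0.000136), and every BI8622 level exceeded every DMSO level. GLA, α-galactosidase A (chromosome X, 100648261 to 100663000, minus strand), went the other way, with 20.8, 21.9, 17.7 and 16.0 CPM with BI8622 and 35.8, 33.4, 29.8 and 32.1 CPM with DMSO. It fell by 0.79 ± 0.08, to 0.58 of the DMSO level (limma adjusted p = 0.000148), again without overlap. The others rose less: PSAP, the precursor of the saposins that assist sphingolipid breakdown, by 0.37 (limma adjusted p = 0.00518), the acid lipase LIPA by 0.37 (0.00162), and the cholesterol carrier NPC2 by 0.37 (0.00263). The α-glucosidase GAA rose by 0.31 (limma adjusted p = 0.00448), the hexosaminidase subunit HEXA by 0.25 (0.00842) and the acid ceramidase ASAH1 by 0.21 (0.0155).

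**Figure D2:**
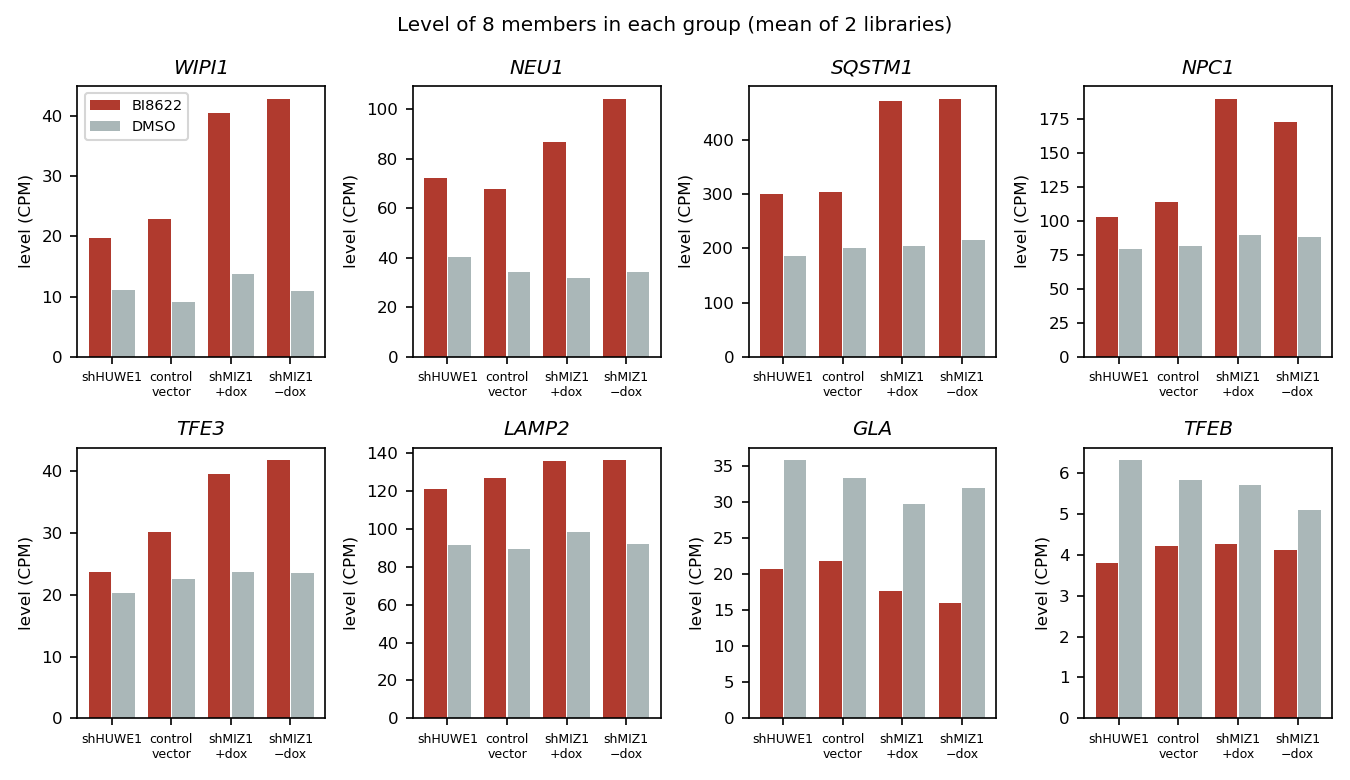
Levels in CPM (linear axes starting at 0) are shown for 8 genes in the 4 arms, BI8622 in red and DMSO in grey, each bar the mean of 2 libraries solved from the tables, without error bars because the tables used here give no value per library. For NEU1 the BI8622 bars span 67.7 to 104 CPM and the DMSO bars 31.9 to 40.5 CPM, while GLA shows the opposite order in each arm.

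The autophagy receptor SQSTM1 (chromosome 5, 179233398 to 179265078, plus strand) stood at 301, 303, 472 and 476 CPM with BI8622, against 187, 201, 204 and 215 CPM with DMSO. It rose by 0.91 ± 0.10, or 1.88-fold (limma adjusted p = 0.000255), and the BI8622 levels of the HUWE1 experiment and of the MIZ1 experiment formed 2 separate pairs. The ATG8 genes changed less. MAP1LC3B, which encodes LC3B, had 58.2, 65.4, 78.1 and 82.1 CPM with BI8622 and 56.1, 59.2, 67.2 and 68.8 CPM with DMSO, a rise of 0.17 ± 0.06 (limma adjusted p = 0.0452). GABARAPL1 had 21.5, 17.3, 22.6 and 23.2 CPM with BI8622 and 16.3, 16.7, 19.8 and 17.2 CPM with DMSO, a rise of 0.27 ± 0.09 (limma adjusted p = 0.0307). For both genes near-identical copies exist (MAP1LC3B2 and GABARAPL3), and the sources used here do not say how reads shared with them were counted. GABARAPL2, the third ATG8 gene of the list, had a mean difference of −0.02 (limma adjusted p = 0.875).

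WIPI1 rose the most of the 33 genes. It encodes a phosphoinositide-binding protein of the early autophagosome (chromosome 17, 66417089 to 66453654, minus strand) and stood at 19.7, 22.9, 40.4 and 42.8 CPM with BI8622, against 11.1, 9.16, 13.7 and 11.0 CPM with DMSO. The rise was 1.42 ± 0.15, or 2.67-fold (limma adjusted p = 0.000204), between 0.83 in shHUWE1 cells and 1.96 without doxycycline. The other 3 genes of initiation and membrane supply did not pass. The kinase gene ULK1 had 24.7, 31.9, 38.4 and 40.3 CPM with BI8622 and 25.1, 31.8, 31.6 and 32.3 CPM with DMSO (mean 0.15, limma adjusted p = 0.166). ATG9A, the membrane protein of the vesicles that seed the autophagosome, had 87.9, 96.0, 96.6 and 107 CPM with BI8622 and 94.8, 93.7, 83.1 and 85.9 CPM with DMSO (mean 0.11, limma adjusted p = 0.248). BECN1, a subunit of the lipid kinase complex, had 59.3, 63.8, 58.6 and 58.8 CPM with BI8622 and 57.0, 63.1, 62.5 and 61.1 CPM with DMSO (mean −0.02, limma adjusted p = 0.82). For ULK1 and ATG9A the BI8622 levels were above DMSO in both arms of the MIZ1 experiment and near it or below in the HUWE1 experiment. Of the 4 conjugation genes, ATG5, ATG7, ATG12 and ATG16L1, 0 passed after adjustment and ATG7 alone had an unadjusted limma p under 0.05 (0.0481). Their mean differences lay between 0.00 and 0.21.

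The calls on 4 of the 21 genes changed with single arms or with the variance model. With no trend of the variance with level, the limma adjusted p was 0.0742 for CTSD, 0.103 for MAP1LC3B, 0.0554 for GABARAPL1 and 0.0565 for ASAH1. Without the shMIZ1 arm without doxycycline, the limma adjusted p was 0.104 for CTSD (mean 0.17), 0.171 for MAP1LC3B (0.14), 0.129 for GABARAPL1 (0.21) and 0.0508 for ASAH1 (0.21). Without the arm with doxycycline it was 0.108 for CTSD (0.21), 0.168 for MAP1LC3B (0.15) and 0.0692 for GABARAPL1 (0.30). Without the control vector arm MAP1LC3B (0.17, adjusted p = 0.101) and ASAH1 (0.17, adjusted p = 0.0781) no longer passed. Without the shHUWE1 arm GABARAPL1 no longer passed (0.23, adjusted p = 0.0926), whereas ATG7, which had fallen short with all arms (0.21, adjusted p = 0.0926), did (0.33, adjusted p = 0.00509). The other 17 genes passed in each of the 9 alternative settings in which they were tested, TFEB being below a filter of 5 CPM.

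The promoters shown above were then set beside the responses, and genes with and without the hexamer overlapped widely. The 7 genes that held it had a median difference of 0.05, and 3 of them (NEU1, GAA and CTSD) were higher. The 21 genes of the promoter table without it had a median of 0.17, and 10 were higher, among them WIPI1, SQSTM1 and NPC1. The 5 genes that were not in the promoter table (ASAH1, CTSB, HEXA, LAMP2 and PSAP) had a median of 0.25, and 4 were higher. Whether they hold the hexamer was not read. LAMP1, with 6 copies, did not pass. Of the genes with the longer form, GAA rose by 0.31, and MCOLN1 did not pass (−0.20, limma adjusted p = 0.145).

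Depletion of HUWE1 was compared next. At 1.5-fold, 0 of the 33 genes differed between shHUWE1 and control vector cells, either in BI8622 (5.01% of all genes) or in DMSO (5.67%). In BI8622 the members ranged between −0.37 (ULK1) and 0.31 (GABARAPL1), with 11 of 33 above 0 and a median of −0.04, against −0.03 for all genes. In DMSO they ranged between −0.34 (ULK1) and 0.36 (ATG7), with 20 of 33 above 0 and a median of 0.04, against 0.02 for all genes. ULK1 was thus lower in shHUWE1 cells in both treatments, and its levels there were 24.7 CPM in shHUWE1 and 31.9 CPM in control vector cells with BI8622, and 25.1 and 31.8 CPM with DMSO. These differences carry no test, since each rests on 1 pair of groups, and the comparisons share groups with those of BI8622.

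The log2 difference between BI8622 and DMSO was less positive or more negative in shHUWE1 than in control vector cells for 24 of the 33 genes and for 57.9% of all genes. The median of shHUWE1 minus control vector was −0.11 over the list and −0.04 over all genes. GLA, TFEB and CTSB are among the 24, with a more negative difference in shHUWE1 cells. By 1.5-fold, 0 of the 33 genes differed in response. The extremes were WIPI1 (−0.50: a difference of 0.83 in shHUWE1 and 1.33 in control vector cells) and GABARAPL1 (0.35: 0.40 in shHUWE1 and 0.05 in control vector cells). Over all genes the central 95% of this quantity ran between −0.88 and 0.60, so that both extremes lay inside it.

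Doxycycline, with which ZBTB17 stood lower, gave the same count of 0. At 1.5-fold 0 of the 33 genes differed between cells with and without it, either in BI8622 (3.68% of all genes) or in DMSO (3.66%). The members ranged between −0.27 (MCOLN1) and 0.20 (ATG16L1) in BI8622 and between −0.36 (MCOLN1) and 0.32 (WIPI1) in DMSO. MCOLN1 stood at 9.11 CPM with and 11.0 CPM without doxycycline in BI8622, and at 8.99 and 11.5 CPM in DMSO. Among all 7752 genes with a mean of 16 to 64 CPM, the central 95% of the doxycycline differences in DMSO ran between −0.26 and 0.26, a range that holds library noise and any effect of doxycycline together. WIPI1 was the 1 of 15 members in that range of levels that lay outside it, and in BI8622 0 of the 15 did. For genes of 64 to 256 CPM the range was −0.24 to 0.21 in BI8622, and NEU1, at −0.26, was the 1 of 14 members outside. In DMSO 0 of these 14 lay outside. Of the 2 members at 4 to 16 CPM and the 2 at 256 to 1024 CPM, 0 lay outside in either treatment. MCOLN1 lay at 4 to 16 CPM, where the central 95% ran between −0.48 and 0.48 in BI8622 and −0.41 and 0.54 in DMSO. The BI8622 difference was less positive or more negative with than without doxycycline for 25 of the 33 genes and for 53.8% of all genes. The median of with minus without doxycycline was −0.05 over the list and −0.02 over all genes. Over all genes the central 95% of this quantity ran between −0.72 and 0.61, and by 1.5-fold 0 of the 33 genes differed in response. The BI8622 response of WIPI1 was 1.56 with and 1.96 without doxycycline. GLA, the other extreme, stood at 0.595 of the DMSO level with and 0.499 of it without doxycycline.

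**Figure D3:**
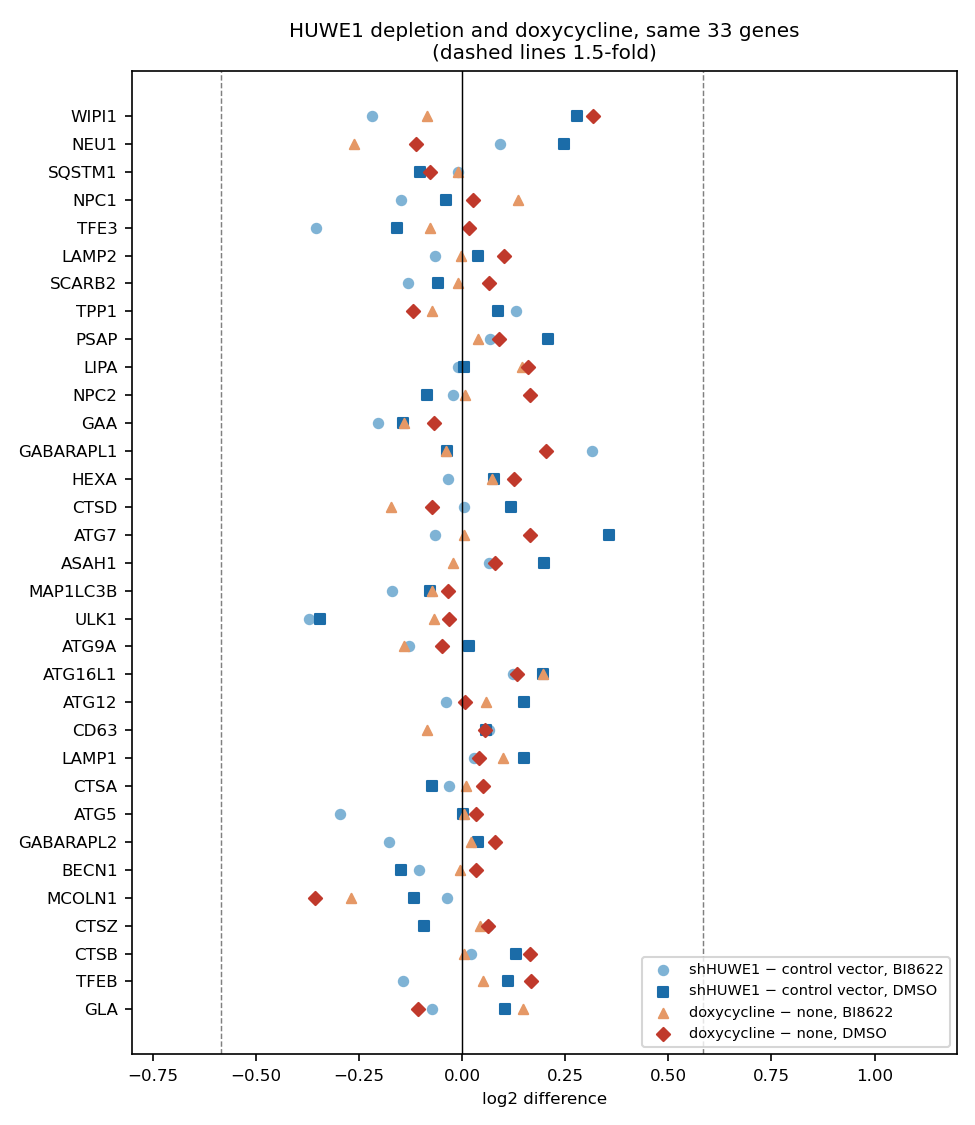
The log2 differences of shHUWE1 against control vector cells and of cells with against cells without doxycycline, each in BI8622 and in DMSO, are plotted for the same 33 genes in the order of their BI8622 response. The symbols lie between −0.37 and 0.36, inside the dashed 1.5-fold lines.

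The response to BI8622 was larger in the MIZ1 experiment than in the HUWE1 experiment for 9 of the 33 genes, and smaller for none that passed (limma, 2 arms against 2, adjusted over 24111 genes, of which 13.3% passed in either direction). The median of MIZ1 minus HUWE1 experiment was 0.14 over the list and 0.02 over all genes. The share of all genes that passed was not split by direction. For WIPI1 the mean response was 1.76 in the MIZ1 and 1.08 in the HUWE1 experiment, for NEU1 1.52 and 0.91, for SQSTM1 1.18 and 0.64, and for NPC1 1.03 and 0.43. For TFE3 it was 0.78 and 0.33, for PSAP 0.55 and 0.19, and for CTSD 0.37 and 0.10. ATG9A had 0.26 and −0.04, and ATG16L1 0.24 and −0.04. Responses were wider in the MIZ1 experiment over all genes too, with an SD of 0.566 with and 0.614 without doxycycline, against 0.415 in shHUWE1 and 0.452 in control vector cells. With no trend of the variance with level, 0 of the 33 genes passed in limma (10 had an unadjusted p under 0.05, and the lowest adjusted p was 0.151), as did 0.0% of all genes. Solved on the log2 scale 5 passed, with 7.47% of all genes. Vector, selection and experiment cannot be told apart in this contrast. Its error is the spread between arms within an experiment, so variation between repeats of an experiment is not measured.

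Related genes of the same compartments were then read, from lists written with the results of the 33 genes known. Of 29 further lysosomal hydrolases past the filter, 15 were higher, 5 lower and 9 did not pass, with a median of 0.18 (limma over the 4 arms, adjusted over 24111 genes). These counts, and those of the next lists, stand beside 23.3% higher and 22.2% lower over all genes. IDUA, the iduronidase, rose by 1.09 (adjusted p = 0.000565), the aspartylglucosaminidase AGA by 0.97 (0.000174) and the acid sphingomyelinase SMPD1 by 0.89 (0.000238). The thioesterase PPT1 fell by 0.39 (0.00133), and the cysteine cathepsin CTSH fell by 0.37 (0.0018). Rises thus outnumbered falls in both sets of hydrolases.

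The V-ATPase, the proton pump that acidifies the lysosome, had 5 of 19 subunits higher, 5 lower and 9 that did not pass, with a median of −0.07, shares near the 23.3% higher and 22.2% lower of all genes. Of 8 membrane-sector genes, ATP6V0E2 (−0.46), ATP6V0C (−0.32), ATP6V0B (−0.31) and ATP6V0D1 (−0.24) fell. ATP6V0A2 (−0.24), ATP6V0E1 (−0.16), ATP6V0A1 (0.02) and ATP6V0A4 (0.23) did not pass. ATP6V1C2, of the catalytic sector, fell by 0.14. The accessory gene ATP6AP1 rose by 0.40 (adjusted p = 0.00356) and ATP6V1H, also of the catalytic sector, by 0.37 (0.00198). Of 19 membrane and sorting genes 7 were higher and 3 lower, with a median of 0.05. The 3 lower ones were LITAF (−0.41), LAPTM4B (−0.28) and CLN3 (−0.22). OSTM1, the partner of the chloride transporter CLCN7, rose by 0.93 (adjusted p = 5.81e-05), the cation channel gene TPCN1 by 0.73 (0.00011) and IGF2R, the large mannose 6-phosphate receptor, by 0.58 (0.000447).

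Of 34 further autophagy genes 10 were higher, 4 lower and 20 did not pass, with a median of 0.06, and the share higher was near the 23.3% of all genes. The list holds 6 cargo receptor genes besides SQSTM1, of which 4 rose: OPTN by 1.02 (adjusted p = 0.000607), CALCOCO2 by 0.55 (0.000224), TAX1BP1 by 0.31 (0.00114) and NBR1 by 0.29 (0.0017). The mitophagy receptor BNIP3 fell by 0.33 (0.00765), and BNIP3L had −0.03 (0.709). PLEKHM1, an adaptor of autophagosome and lysosome fusion, rose by 0.78 (0.000474). PIK3R4, of the lipid kinase complex, fell by 0.48 (0.00279), WIPI2 by 0.33 (0.00152) and the conjugating enzyme ATG3 by 0.32 (0.00474). WIPI2, the close relative of WIPI1, thus went the other way.

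Of 21 genes of nutrient sensing at the lysosome 12 were higher and 1 lower, with a median of 0.27, against 0.21 for the 33 genes. FLCN, the folliculin GTPase-activating protein, rose by 0.88 (adjusted p = 0.000984) and its partners FNIP1 and FNIP2 by 0.56 (0.000317) and 0.48 (0.000827). The Rag GTPase genes RRAGB, RRAGC and RRAGD rose by 0.62, 0.52 and 0.51, while RRAGA had 0.06 (adjusted p = 0.474). TSC1 rose by 0.61 (0.000336) and MITF, of the family of TFEB and TFE3, by 0.42 (0.0107). Of the 5 genes of the scaffold that anchors the Rag proteins, LAMTOR3 rose by 0.40 (0.00379), LAMTOR4 fell by 0.31 (0.00586), and LAMTOR1, LAMTOR2 and LAMTOR5 did not pass. MTOR itself had −0.12 (0.0842).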

How the data were processed

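RNA of 16 Ls174T libraries (2 experiments, 8 groups of 2) was used, and 6 ChIP sequencing samples were not. Bowtie 0.12.8 (genome hg19) was the authors' aligner and edgeR their tool for comparing groups; CASAVA and FastQC are also named in the submitters' notes. The sources used here give no counting tool, library scaling or depth. The deposited log2 values are the authors' edgeR mean log2 CPM over the libraries of a pair of groups, and they were the only columns used. The fold changes, p-values and adjusted p-values beside them are the authors' own comparisons and were not used.

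The power of 2 of each value was taken as the mean CPM of its 2 groups, and the equations of the 4 or 5 pairs per table were solved for each gene. In the MIZ1 experiment a pair was not needed for the solution. The level of shMIZ1 cells without doxycycline in DMSO could therefore be solved by 2 routes. The log2 gap between the routes had a median of −0.000274, and was at most 0.0264 in size for a member. The HUWE1 experiment had as many pairs as groups, so its solution could not be checked in this way. Genes over 1 CPM in both experiments (24111 of 24560 in both tables) were tested with limma 3.58.1 (R 4.3.3) on 1 difference of BI8622 minus DMSO per arm, with a variance trend on level and Benjamini-Hochberg adjustment; the code was tested on simulated data. The choice of this test followed a look at the data, in place of tests per library. Counts at 1.5-fold (0.58 on the log2 scale) carry no test. Members and lists were chosen with earlier results of these data known. Full values are given by rule for members past 1.5-fold in any arm and for fixed representatives of each role; list genes were named after their values were seen. The sources do not say that replicate libraries came from separate cultures, so the spread within a group may be technical. Gene positions are from GENCODE mapped to GRCh37, and promoters from RefSeq (GRCh38.p14). Alternatives were a lower and a higher fold (0.32 and 1 on the log2 scale), no filter or 5 CPM, pair means solved on the log2 scale, centring on the median gene, no variance trend, and each arm left out. A result for 1 gene of the further lists is not reported here.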

Additional observations from a re-analysis of the deposited data

Results flagged for a closer look

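The response to BI8622 differed between the MIZ1 experiment and the HUWE1 experiment for 9 of the 33 genes in a limma test of the difference itself (MIZ1 minus HUWE1 experiment, 2 arms against 2). The difference was 0.69 on the log2 scale for WIPI1 (adjusted p = 0.017), 0.61 for NEU1 (0.00081), 0.60 for NPC1 (0.000278) and 0.54 for SQSTM1 (0.000268). Of the 33 genes these varied most over the 4 arms (SD 0.47, 0.36, 0.35 and 0.31), a spread that includes the difference tested. For TFE3 the difference was 0.46 (limma adjusted p = 0.0149), for PSAP 0.36 (0.00439), for ATG9A 0.30 (0.024), for ATG16L1 0.28 (0.0454) and for CTSD 0.27 (0.0255). Of these, ATG9A and ATG16L1 had passed no test over the 4 arms together. All 9 were positive, while the test passed 13.3% of all genes in either direction, which were not split by direction. Responses were wider in the MIZ1 experiment over all genes too. With no variance trend in limma, 0 of the 33 genes passed. The error of this test is the spread between arms within an experiment, so variation between repeats of an experiment is not measured. Vector, selection and experiment cannot be told apart.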

How the results depend on the processing

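No paired analysis was possible because the tables used here give no value per library, and for the same reason no replicate could be left out. With the fold for counting lowered to 0.32 on the log2 scale, the members counted were 13 for BI8622 in shHUWE1 cells (36.9% of all genes), 14 in control vector cells (40.1%), 15 with doxycycline (47.7%) and 17 without it (51.0%), 2 for shHUWE1 in BI8622 (18.9%), 2 for shHUWE1 in DMSO (19.6%) and 1 for doxycycline in DMSO (15.0%). At 2-fold they were 0 in shHUWE1 cells (2.61% of all genes), 1 in control vector cells (3.8%), 4 with doxycycline (7.37%) and 4 without it (9.21%). The number of members higher with BI8622 over the arms lay between 13 and 17 in 9 settings. The number lower was 4, or 3 at 5 CPM, where 32 members remained. Over the same settings 16.7% to 26.6% of all genes were higher and 15.7% to 27.8% lower. Where 13 members were higher, the share of all genes was 21.3% (no variance trend) and 17.4% (without the shMIZ1 arm without doxycycline). In each setting that tested them 17 members were called, and 0 changed direction. The contrast between experiments passed 5 members when solved on the log2 scale (7.47% of all genes), 11 at 5 CPM (19.8%) and 0 with no variance trend in limma, where 10 had an unadjusted p under 0.05. Without library values, the counting error of low genes such as TFEB is unknown.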
